A study of Mus musculus with 6 samples.

Results

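The 9 actin genes described here take part in the off-center positioning of the oocyte spindle and were followed in MII oocytes of reproductively old ICR mice. The genes were taken by name among the Ensembl identifiers of the FPKM table, which gave 9 of 60193 listed rows. They were the actin nucleators Fmn2, Spire1 and Spire2, the vesicle genes Myo5b and Rab11a, the cytoplasmic actins Actb and Actg1, the Arp2/3 subunit Arpc2 and the filament-severing factor Cfl1. Oocytes matured in vitro (IVM) were compared with oocytes matured in vivo (IVO), with 3 libraries in each group. Every library pooled 20 oocytes from 3 mice of 42 to 45 weeks, and all mice had received 5 IU of PMSG. For IVM, denuded germinal vesicle oocytes were collected 46 h later and kept for 12 h in M16 medium. For IVO, 5 IU of hCG was given after PMSG, ovulated oocytes were taken from the oviduct 14 h after hCG, and their cumulus cells were removed with hyaluronidase. Culture, the absence of cumulus cells during maturation, hCG and the time of collection differed together between the groups and cannot be told apart. The paper treats ICR mice of this age as a natural aging model, and young mice were not part of the comparison analysed here.

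In mouse oocytes the meiotic spindle forms near the center and is carried to the cortex, so that division leaves a large egg and a small polar body. A cytoplasmic actin mesh drives this movement. It is assembled by the formin Fmn2 together with Spire proteins on vesicles that carry Rab11a and move by the motor myosin Vb. At the cortex, filaments branched by the Arp2/3 complex keep the spindle in place, and cofilin severs and disassembles filaments so that actin can be reused.

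The summed FPKM was 1826738 to 2111776 in IVM and 1560813 to 1643682 in IVO libraries, and the median log2FC of all 18818 tested genes, IVO minus IVM, was -0.30. Scaling the libraries by median ratio moved this median to -0.03, and quantile normalization moved it to 0.17. Over the 13154 tested Ensembl genes alone the median was -0.18, the rest of the 18818 being assembled loci. The depth inferred from the steps between low values was 16500000 to 19000000 fragments in IVM and 17700000 to 18500000 fragments in IVO libraries, and the mean fragment length inferred with it was 200 to 220 bases in IVM and 240 to 270 bases in IVO. All 10 oocyte markers, among them Zp3, Gdf9 and Bmp15, had a mean of at least 1 FPKM, and their sum was 12310 to 14770 FPKM in IVM and 9151 to 10150 FPKM in IVO. Single markers differed more than this sum, which Dppa3 dominates. Zp2, Zp3, Zp1 and Nlrp5 met the criterion for lower levels used below, with a log2FC of -3.69, -3.13, -2.43 and -1.99, while Dppa3 had -0.17 and Npm2 had -0.02. Of 14 cumulus markers, 3 had a mean of at least 1 FPKM (Fshr, Cyp19a1 and Nr5a2), and the sum over all 14 was 61.7 to 64.6 FPKM in IVM and 43.9 to 53.5 FPKM in IVO. The other 11 summed to 0.67 to 0.83 FPKM in IVM and 1.34 to 1.73 FPKM in IVO, and Amh was listed at 0 in every library. The 3 oviduct markers summed to at most 0.14 FPKM in IVM and 0.39 FPKM in IVO, with Pax8 at 0 throughout, and the 3 blood markers to at most 0.21 and 3.65 FPKM. The part of these markers in the results was not tested. Because each library is a pool, fewer cells of a type and less RNA per cell cannot be told apart.

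Of the 8 tested genes of this set, Cfl1 differed most between the groups. Cfl1 encodes cofilin-1, the non-muscle cofilin, and lies on chromosome 19 of GRCm39 (chr19:5540483-5545229, plus strand, protein-coding). Its level was 325, 144 and 165 FPKM in IVM1 to IVM3 and 23.9, 18.4 and 26.9 FPKM in IVO1 to IVO3. Every IVO library lay below every IVM library, and IVM1 was the highest. The IVM mean was 211 ± 99.0 FPKM (SD, n = 3) against 23.1 ± 4.35 FPKM (SD, n = 3) for IVO, a 9.17-fold lower level. On the log2(FPKM + 1) scale the log2FC was -3.06 (standard error 0.33, 95% interval -3.84 to -2.28, adjusted p = 0.00192 from limma). The criterion for a differentially expressed gene (DEG), |log2FC| ≥ 1 and an adjusted p under 0.05, was met by Cfl1 alone among the 8 actin genes with a mean of at least 1 FPKM, a share of 12.5%. Over all tested genes 18.5% were DEGs, 17.9% lower and 0.606% higher in IVO, so the share among the 8 was not above that of the table as a whole. With Ensembl genes only, 15.6% were DEGs, 15% lower and 0.639% higher. The excess of lower over higher DEGs in the table moved with the processing, to 11.1% lower and 2.09% higher when scaled by median ratio, 8.4% and 5.83% after quantile normalization, and 8.03% and 2.96% with each library's trend with gene length removed. Leaving out each library in turn kept the log2FC of Cfl1 between -3.29 and -2.71, and scaling by median ratio or by quantiles gave -2.74 and -2.58. Among the tested genes, 91.2% were at or below the mean level of Cfl1 in IVM and 70.4% in IVO.

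The lower level of Cfl1 in IVO was set beside its closest relative. Cfl2, the cofilin known mainly from muscle, was at 31.9, 26.5 and 32.8 FPKM in IVM and 42.0, 43.2 and 48.5 FPKM in IVO libraries. All IVO values of Cfl2 were above the IVM values, but its log2FC of 0.54 (standard error 0.18) did not meet the criterion (adjusted p = 0.0733 from limma). The Cfl1 to Cfl2 ratio, chosen after the values were seen, was 10.2, 5.44 and 5.04 in IVM and 0.568, 0.425 and 0.555 in IVO libraries. Cfl1 was thus the more abundant cofilin transcript per length in the 3 IVM libraries and Cfl2 in the 3 IVO libraries. The mean log2 ratio differed by -3.67, with no overlap and an exact two-sided permutation p of 0.1, the smallest that 3 against 3 libraries allow (0.125 adjusted over the 5 ratios computed). A ratio within a library does not depend on a single scaling factor per library, as in median-ratio scaling, but can move with quantile normalization.

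Reads of Cfl1 could be shared with few other genes. Its 3 pseudogene copies with at least 90% identity over at least 300 bases were listed at 0 in all libraries. Snx32, which overlaps Cfl1 on the opposite strand, was at 0 to 0.53 FPKM. The estimated number of fragments on Cfl1 ran from 294 to 4981 per library.

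The cytoplasmic actins Actb and Actg1 encode nearly identical proteins of the filament itself, and their coding sequences are told apart by scattered base differences. The first 30 coding bases of each, read from GRCm39, are shown as an example, and they differ more than the coding sequence as a whole. Capitals mark the bases that differ, 8 of the 30.
Actb: atggaTgaCgaTatcgcTgcGctGgtcGtC
Actg1: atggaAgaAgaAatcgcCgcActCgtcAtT
Over the coding sequence of 1128 bases, 1000 positions (88.7%) were identical, and the longest identical run was 62 bases, shorter than the reads of 150 bases. The canonical transcripts have 1920 bases for Actb and 2201 for Actg1, and their untranslated parts were left out of this identity.

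Actb lies on chromosome 5 (chr5:142888870-142892509, minus strand) and was at 103, 63.9 and 125 FPKM in IVM and 132, 132 and 126 FPKM in IVO libraries. The IVO libraries were close to each other and all above the IVM libraries, of which IVM2 was far the lowest and IVM3 was just under the lowest IVO value. Its log2FC was 0.46 (standard error 0.26, 95% interval -0.15 to 1.08, adjusted p = 0.244 from limma), so it did not pass the test. The coefficient of variation was 31.9% in IVM and 2.33% in IVO. With median-ratio scaling the log2FC was 0.79 (adjusted p = 0.0556), and with quantile normalization it was 0.97 (adjusted p = 0.0389), under the fold threshold in both.

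Actb was also the internal control of the study's splicing gels. The primers of that product are shown with capitals at the bases that differ from the best match in Actg1, 2 in the forward and 7 in the reverse primer.
Actb forward primer: agatCaagatcattgctccTcctga
Actb reverse primer: gCagcTcagtAACagTcCgc
The forward primer spans the junction of exons 5 and 6, and the reverse primer matches exon 6 just after the stop codon (chr5:142889533-142889552). The product is 172 bases in the spliced transcript.

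Actg1, on chromosome 11 (chr11:120236512-120239617, minus strand), was at 28.8, 10.8 and 24.1 FPKM in IVM and 12.7, 11.8 and 10.9 FPKM in IVO libraries. IVM1 and IVM3 were above all IVO libraries, while IVM2 was below them, so the groups overlapped. The log2FC was -0.70 (standard error 0.35, 95% interval -1.52 to 0.13, adjusted p = 0.2002 from limma). Without IVM2 it was -1.10 (adjusted p = 0.0223 from limma), which would make Actg1 a DEG, so with FPKM as deposited the call turned on this library. Without IVM1 it was -0.43 (adjusted p = 0.448). Other processing also brought it closer to no difference. It was -0.39 with median-ratio scaling (adjusted p = 0.408), -0.20 with quantile normalization (adjusted p = 0.676) and -0.50 with the length trend removed (adjusted p = 0.305). Pseudogene copies of Actg1 in the table summed to 8.98, 0.95 and 3.35 FPKM in IVM and 0.59, 0.49 and 2.12 FPKM in IVO libraries, and the split of reads between Actg1 and these copies is uncertain.

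Within libraries, the balance of both actins differed in 1 direction. Actg1 made up 21.8%, 14.5% and 16.2% of the summed FPKM of Actb and Actg1 in IVM and 8.78%, 8.24% and 7.95% in IVO libraries. No IVO library reached the lowest IVM share, IVM2 included. The Actg1 to Actb ratio was 2.30-fold lower in IVO (difference -1.20 on the log2 scale, exact two-sided permutation p = 0.1, adjusted p = 0.125 over the 5 ratios). The summed level was 132, 74.7 and 149 FPKM in IVM and 144, 143 and 137 FPKM in IVO. The genes of the other 4 actin isoforms, expressed mainly in muscle, were at 0.65 FPKM or less in every library.

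**Figure D1:**
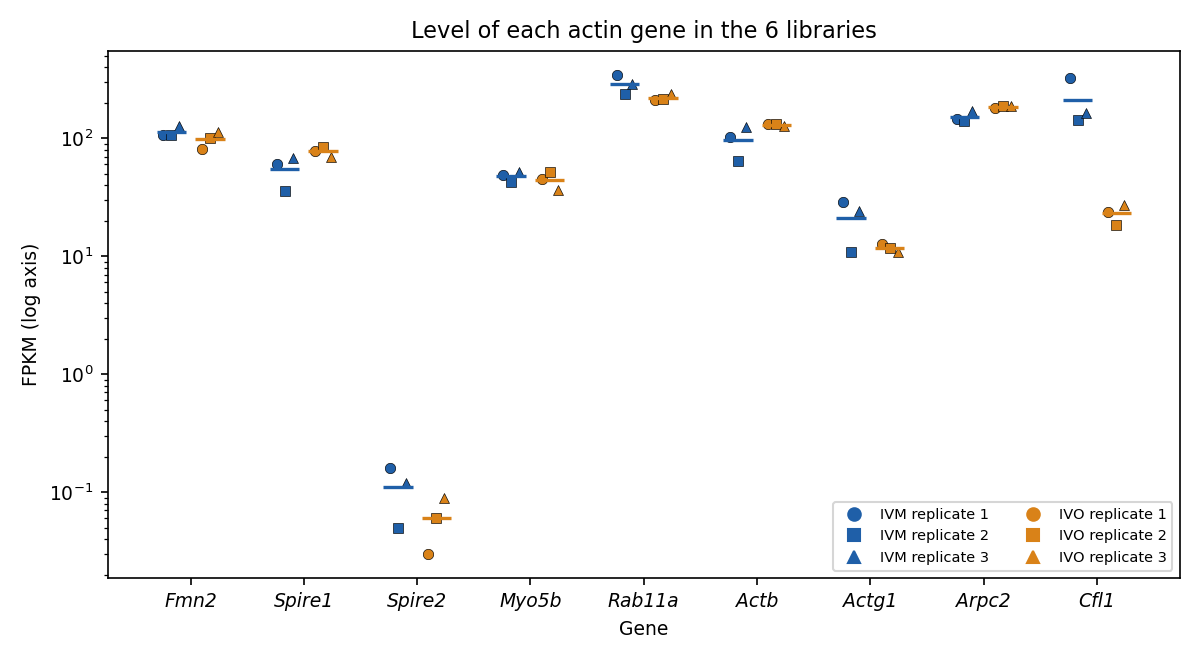
FPKM on a log axis of the 9 actin genes in each library, with IVM in blue, IVO in orange, a symbol per replicate and a bar at the group mean. Cfl1 is at 144 to 325 FPKM in IVM and 18.4 to 26.9 FPKM in IVO. IVM2 is the lowest IVM library for all 9 genes, and Spire2 sits far below the rest.

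Of the nucleators of the cytoplasmic mesh, Fmn2 and Spire1 did not pass the test, and Spire2 was too low to be tested. Fmn2, the formin needed for spindle migration, lies on chromosome 1 (chr1:174329363-174650304, plus strand). It was at 107, 106 and 128 FPKM in IVM and 81.8, 102 and 114 FPKM in IVO libraries. The groups overlapped, and the log2FC was -0.20 (95% interval -0.66 to 0.25, adjusted p = 0.4935 from limma), with the sign turning to 0.12 under median-ratio scaling and 0.31 under quantile normalization.

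Spire1, which starts filaments together with Fmn2, lies on chromosome 18 (chr18:67618428-67744220, minus strand). Its level was 60.7, 35.8 and 67.9 FPKM in IVM and 77.4, 84.5 and 70.1 FPKM in IVO. The IVO libraries were all above the IVM libraries, with IVM3 and IVO3 close to each other. The log2FC was 0.53 (standard error 0.27, 95% interval -0.09 to 1.16, adjusted p = 0.194 from limma). It was 0.86 with median-ratio scaling (adjusted p = 0.0474) and 1.03 with quantile normalization (adjusted p = 0.0300), where it met the criterion.

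Spire2, its paralog on chromosome 8 (chr8:124059360-124099601, plus strand), was hardly detected. It was listed at 0.16, 0.05 and 0.12 FPKM in IVM and 0.03, 0.06 and 0.09 FPKM in IVO, and it was not tested. These values correspond to an estimated 5.6, 2.0 and 4.8 fragments in IVM and 1.1, 2.2 and 3.3 fragments in IVO libraries, where 3 fragments are worth 0.0741 to 0.0861 FPKM. The ratio of the summed fragments, IVO over IVM, was 0.475 with a 95% counting interval of 0.148 to 1.34, so a difference was not detectable at this depth. The log2 ratio of Spire2 to Spire1 differed by -1.40 with no overlap (exact two-sided permutation p = 0.1, adjusted p = 0.125 over the 5 ratios), but it rests on these few fragments.

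The vesicle genes did not pass the test either. Rab11a, the GTPase on the vesicles, lies on chromosome 9 (chr9:64581321-64645054, minus strand) and had the highest level of the 9 genes in both groups. It was at 346, 238 and 289 FPKM in IVM and 212, 213 and 237 FPKM in IVO libraries. The groups did not overlap, but IVM2 and IVO3 differed by less than 1 FPKM. Its log2FC was -0.38 (standard error 0.19, 95% interval -0.82 to 0.06, adjusted p = 0.187 from limma), and it was -0.06 with median-ratio scaling and turned to 0.12 with quantile normalization.

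Myo5b encodes the heavy chain of myosin Vb and lies on chromosome 18 (chr18:74574007-74907382, plus strand). It was at 48.4, 42.8 and 52.3 FPKM in IVM and 45.5, 51.7 and 36.6 FPKM in IVO libraries. The groups overlapped, with IVO3 below every IVM library and IVM3 above every IVO library. The log2FC was -0.11 (95% interval -0.58 to 0.37, adjusted p = 0.739 from limma), with a positive sign under median-ratio scaling (0.21) and quantile normalization (0.37). Myo5a, a related motor, was at 344, 271 and 117 FPKM in IVM and 91.0, 101 and 104 FPKM in IVO. Its log2FC was -1.17 (adjusted p = 0.0660 from limma). The Myo5b to Myo5a ratio, chosen after the values were seen, was 0.141, 0.158 and 0.446 in IVM and 0.500, 0.513 and 0.352 in IVO libraries, and the groups overlapped through IVM3 (exact two-sided permutation p = 0.2).

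Arpc2, a core subunit of the Arp2/3 complex, lies on chromosome 1 (chr1:74272190-74307373, plus strand). It was at 144, 139 and 170 FPKM in IVM and 180, 188 and 188 FPKM in IVO libraries. All IVO libraries were above the IVM libraries, and the log2FC was 0.30 (standard error 0.16, 95% interval -0.08 to 0.67, adjusted p = 0.225 from limma). It was 0.62 with median-ratio scaling (adjusted p = 0.0366) and 0.79 with quantile normalization (adjusted p = 0.0199), both under the fold threshold. Relative to the mean log2 level of the other 9 Arp2/3 subunits, Arpc2 was 3.01, 4.31 and 3.97 times as high in IVM and 6.66, 7.37 and 6.41 times as high in IVO libraries. This ratio was 1.83-fold higher in IVO, with no overlap (difference 0.87 on the log2 scale, exact two-sided permutation p = 0.1, adjusted p = 0.125 over the 5 ratios). Arpc3 and Arpc5l also had a positive log2FC without overlap (0.45 and 0.34), and the unweighted mean of the other subunits includes Arpc1a, Actr2 and Actr3b with -1.77, -1.13 and -0.78.

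**Figure D2:**
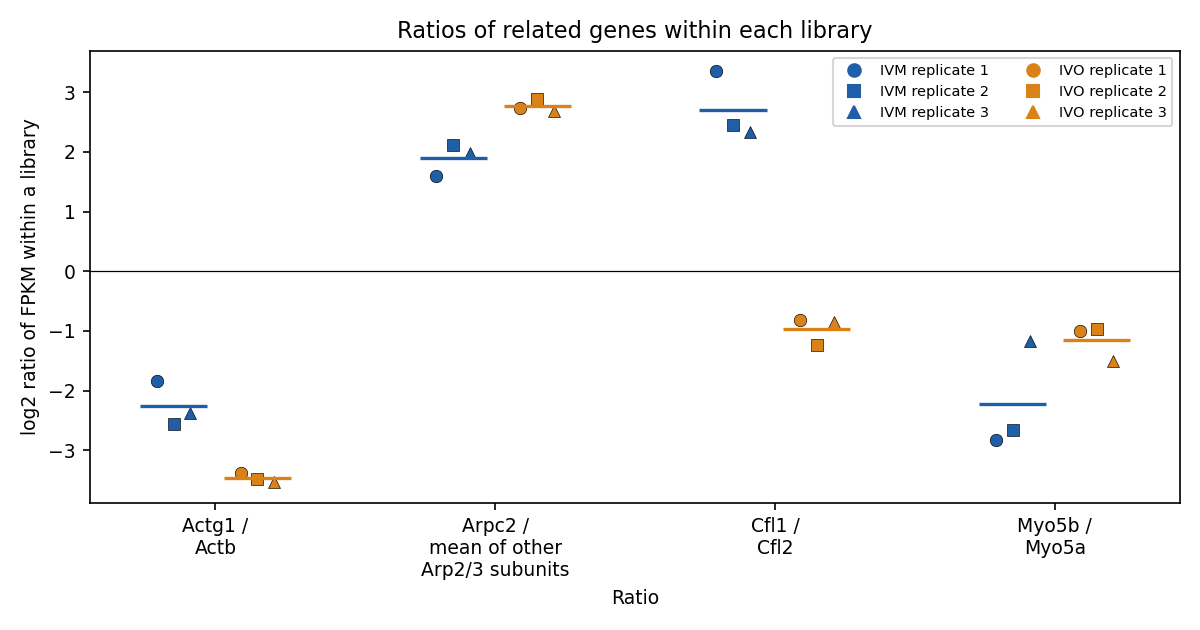
Log2 ratios of FPKM within each library, with IVM in blue, IVO in orange and a bar at the group mean. Cfl1 exceeds Cfl2 in IVM only, Actg1 to Actb is lower and Arpc2 to the other subunits higher in IVO without overlap, and Myo5b to Myo5a overlaps.

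Counted over the 8 tested actin genes, the groups did not overlap in 5. Rab11a and Cfl1 were lower in IVO, and Spire1, Actb and Arpc2 were higher. Over all tested genes the groups did not overlap in 42.2%, with 32.6% lower and 9.62% higher in IVO. The median log2FC of the 8 was -0.16, beside -0.30 over all tested genes and -0.18 over the 13154 tested Ensembl genes, to which the 8 belong.

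**Figure D3:**
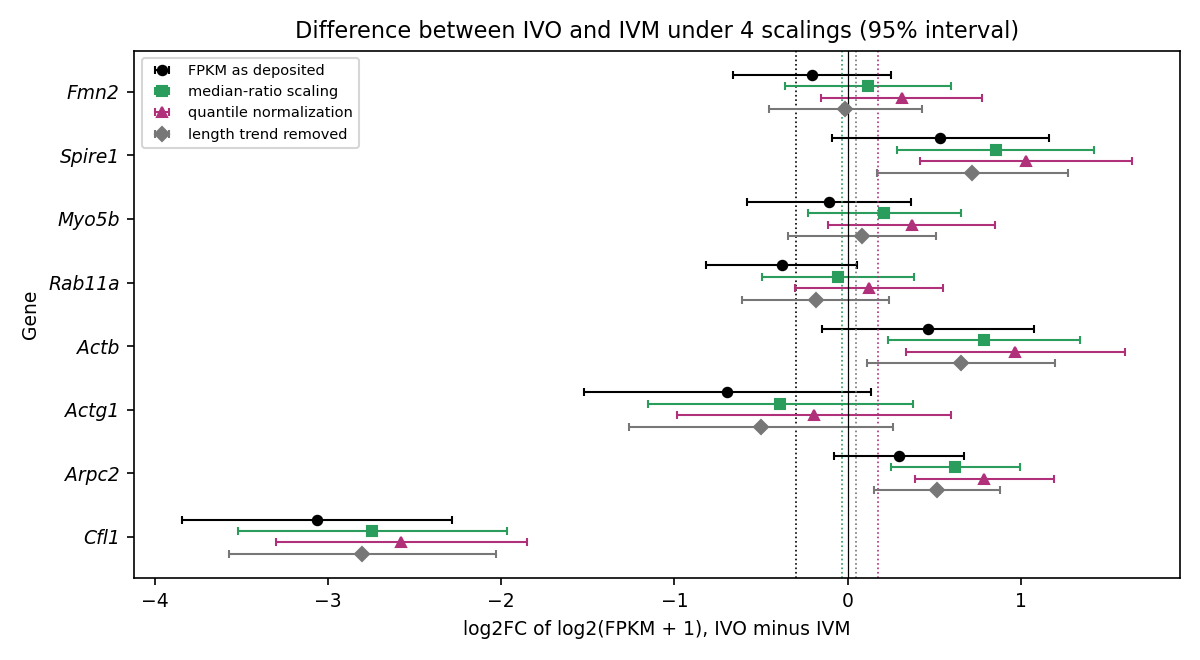
Difference in log2(FPKM + 1), IVO minus IVM, with its 95% interval for the 8 tested genes under 4 scalings, and dotted lines at the median of all tested genes under each. Cfl1 lies between -3.06 and -2.58 in all 4, while Fmn2, Myo5b and Rab11a change sign between scalings, Rab11a only with quantile normalization.

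The order of the levels, per transcript length, differed between the groups mainly through Cfl1. In IVM it ran Rab11a, Cfl1, Arpc2, Fmn2, Actb, Spire1, Myo5b, Actg1 and Spire2. Neighbors in this order had overlapping ranges except Arpc2 and Fmn2, Myo5b and Actg1, and Actg1 and Spire2. In IVO it ran Rab11a, Arpc2, Actb, Fmn2, Spire1, Myo5b, Cfl1, Actg1 and Spire2, and of the neighbors only Fmn2 and Spire1 overlapped. Cfl1 was at rank 2 in IVM and at rank 7 in IVO.

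IVM2 was the lowest IVM library for all 9 actin genes. The same library was the lowest of the IVM libraries for 42.9% of the tested Ensembl genes. Without it the log2FC of Actb was 0.19 in place of 0.46 and that of Spire1 was 0.26 in place of 0.53. Without it as well, the log2FC of Rab11a was -0.52 (adjusted p = 0.0894 from limma), and that of Actg1 met the criterion.

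The rest of the actin machinery was described with 101 further genes in 7 lists, of which 73 were tested. Of these 73, 9 (12.3%) were lower and 0 higher in IVO by the limma criterion, beside 17.9% and 0.606% of all tested genes, and at an adjusted p under 0.05 without the fold threshold 13 were lower and 1, Myl12a, was higher, beside 21.5% and 1.87% of all tested genes. With Ensembl genes only, the counts by the limma criterion were again 9 lower and 0 higher, beside 15% and 0.639% of the 13154 Ensembl genes. The median log2FC of the 73 was -0.12, beside -0.30 over all tested genes and -0.18 over the tested Ensembl genes. With median-ratio scaling 5 were lower (Fmnl3, Arpc1a, Abi2, Tmsb10 and Mylk) and 1 higher, and with quantile normalization 2 were lower (Fmnl3 and Tmsb10) and 5 higher, so Actr2, Capzb, Limk1 and Myl6 met the criterion under neither. These shares stand beside the 11.1% lower and 2.09% higher, and 8.4% and 5.83%, of all tested genes under the same scalings. When each of the 6 libraries was left out in turn, Capzb lost its call in 5 fits, Limk1, Abi2 and Arpc1a in 4 each, and Fmnl3, Tmsb10, Actr2, Mylk and Myl6 in 0.

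Among the formins 1 of 8 tested genes was lower. Fmnl3, a formin of cell protrusions, was at 58.8, 36.9 and 62.2 FPKM in IVM and 5.21, 6.97 and 9.76 FPKM in IVO libraries. Its log2FC was -2.69 ± 0.30 (standard error), with an adjusted p of 0.00202 in limma. Fmnl3 was also the gene of the 73 whose centered profile was nearest to that of Cfl1. The root mean square difference was 0.42 on the log2 scale over the 6 libraries, followed by Tmsb10 with 0.63. Because these profiles include the difference between the groups, genes with a log2FC like that of Cfl1 come out near.

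Of the 9 other Arp2/3 subunits 2 were lower. Actr2 encodes Arp2 and had the highest level of the subunits, at 4165, 3816 and 3103 FPKM in IVM and 1657, 1842 and 1547 FPKM in IVO, a log2FC of -1.13 (adjusted p = 0.00411 from limma). Arpc1a was at 10.5, 2.93 and 5.11 FPKM in IVM and 0.68, 0.64 and 1.5 FPKM in IVO (log2FC -1.77, adjusted p = 0.0234). Both groups of values were separate for each gene. Among the 12 tested regulators of Arp2/3, Abi2, a member of the WAVE complex, was lower (log2FC -1.60, adjusted p = 0.0255 from limma).

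In vesicle transport 0 of 4 tested genes met the limma criterion. Myo5a, Rab11b and Rab11fip5 had no overlap and were lower in IVO, with log2FC of -1.17, -1.08 and -1.19. Over all tested genes 32.6% were lower in IVO without overlap. In each of these genes the lowest IVM value lay close to the highest IVO value. They were 117 and 104 FPKM for Myo5a, 1.24 and 1.06 FPKM for Rab11b, and 13.35 and 12.47 FPKM for Rab11fip5. The adjusted p of the 4 ran from 0.0660 to 0.643, and the median log2FC was -1.12.

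Filament turnover held 25 tested genes, of which 3 were lower. Tmsb10, a thymosin that binds actin monomers, was at 657, 455 and 385 FPKM in IVM and 24.5, 21.9 and 27.6 FPKM in IVO libraries. The difference was -4.26 on the log2 scale, with a standard error of 0.24 and an adjusted p of 0.00056 in limma, the most negative of all genes on these lists. It was -3.45 with the length trend removed, the transcript being listed at 433 bases. Tmsb4x, the related thymosin, was at 0.33, 1.1 and 0.85 FPKM in IVM and 4.67, 1.12 and 17 FPKM in IVO, and its log2FC of 1.80, the highest on these lists, did not pass the test (adjusted p = 0.113 from limma). Capzb, a subunit of the capping protein, had a log2FC of -1.16 (adjusted p = 0.0264). Limk1, a kinase that inactivates cofilin by phosphorylation, was at 294, 303 and 175 FPKM in IVM and 90.6, 126 and 132 FPKM in IVO (log2FC -1.12, adjusted p = 0.0252). Limk1 was outside the naming rule and was chosen after its values were seen. The other LIM kinase, Limk2, had a log2FC of 0.68 (adjusted p = 0.0875 from limma), and the cofilin phosphatases Ssh1 and Ssh2 had -1.23 and -0.13 (adjusted p = 0.187 and 0.687).

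At the cortex 2 of 15 tested genes were lower. Mylk, the myosin light chain kinase, was at 124, 213 and 110 FPKM in IVM and 42.5, 54.0 and 53.5 FPKM in IVO (log2FC -1.504, adjusted p = 0.00999 from limma). Myl6, a myosin light chain, had a log2FC of -1.27 (adjusted p = 0.00565), and -0.65 with the length trend removed. Of the other myosin light chains, Myl12a had 0.66 (adjusted p = 0.0263 from limma, under the fold threshold) and Myl12b had -0.02. The small GTPases Cdc42 and Rac1, which act upstream of Arp2/3, had -0.13 and 0.25 and did not pass the test.

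**Figure D4:**
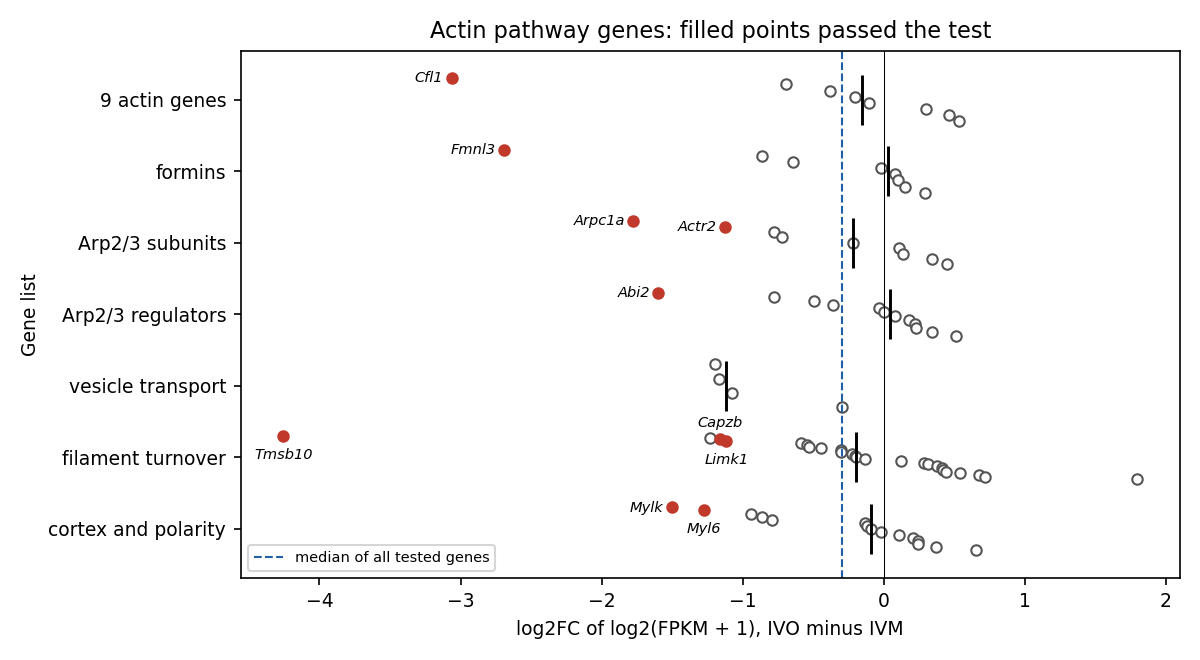
Difference in log2(FPKM + 1), IVO minus IVM, for the tested genes of each list, with a bar at the list median, filled points for genes that met the criterion and a dashed line at -0.30, the median of all tested genes. Tmsb10, Cfl1 and Fmnl3 lie at -4.26, -3.06 and -2.69, and no gene met the criterion in the higher direction with FPKM as deposited.

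The ends of the transcripts were searched for the cytoplasmic polyadenylation element, the word by which stored oocyte mRNAs receive new poly(A) during maturation. TTTTAT or TTTTAAT on the transcript strand was looked for in the last 150 bases of the canonical GRCm39 transcript. Of the 9 actin genes only Rab11a held it, with TTTTAT starting 90 and TTTTAAT starting 61 bases before the end. The element was in 22.6% of 18840 protein-coding transcripts and in 25.5% of the 9474 tested coding genes among them. AATAAA or ATTAAA, the polyadenylation signal, was found in all of the 9 actin genes but Arpc2, against 79.3% of the transcripts and 82.0% of the tested coding genes. The counts among the 9 were not tested against these shares. A match is a description of letters, and oocyte transcripts may end elsewhere than the canonical ones.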

How the data were processed

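Libraries were grouped as IVM or IVO from the labels. Full-length cDNA (SMART-Seq v4) went into Nextera XT libraries that were sequenced as paired 150-base reads. After trimming by SeqPrep and Sickle and HISAT2 2.1.0 alignment to GRCm39, the authors deposited FPKM per gene and library from RSEM 1.3.3, with group means and gene lengths. The deposited means were not used, and DESeq2 1.24.0 is listed in the submitters' processing notes. FPKM is relative to the library, so it does not give transcripts per oocyte. The cDNA was primed on poly(A), and an effect of tail length was not tested. Whether reads were counted by strand is not given in the sources used here.

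Genes with a mean of at least 1 FPKM over the 6 libraries were tested on log2(FPKM + 1) with limma 3.58.1 in R 4.3.3 (lmFit, eBayes with trend), with group as the only term and Benjamini-Hochberg adjustment over 18818 genes. The DEG criterion is given in the report. P-values are two-sided. Folds on this scale understate changes of low genes. Ratios used FPKM without a pseudocount and an exact permutation test (scipy 1.17.1). Depth was inferred from single-transcript genes, of whose low values 76.0% to 79.0% came out as whole fragments (tolerance 0.05 fragments beyond rounding), and intervals cover counting error only. Copies were found with blastn 2.17.0. Scripts for tests and depth were tested on simulated data.

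The 9 genes and the lists were chosen with earlier results of these data known. Named genes were the 9, up to 2 DEGs per direction with the most extreme log2FC in each list, the nearest profile and the markers, and others are named as comparisons. Other settings tried were median-ratio scaling, quantile normalization, another pseudocount (0.1), a stricter filter (mean of at least 5 FPKM) or none, untrended eBayes, a replicate block, removal of each library's length trend, Ensembl genes only and leaving out each library.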

Additional observations from a re-analysis of the deposited data

How the results depend on the processing

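Cfl1 was a DEG lower in IVO under every alternative run, with a log2FC of -3.29 to -2.58. The count of DEGs among the 8 tested actin genes was 1 lower and 0 higher. Leaving out single libraries gave 1 to 2 lower (2 without IVM replicate 2, through Actg1) and 0 to 0 higher, and quantile normalization gave 1 higher, Spire1. Among the other actin pathway genes 9 were lower and 0 higher. The lower count was 5 without a filter, 5 with median-ratio scaling, 2 with quantile normalization, 5 with the length trend removed and 5 to 10 when single libraries were left out (5 without IVO replicate 2). The higher count was 1 with median-ratio scaling, 5 with quantile normalization and 1 with the length trend removed. It was 0 to 1 when single libraries were left out (1 without IVO replicate 2). Of all tested genes 2.09%, 5.83% and 2.96% were higher under these scalings, against 0.606% with FPKM as deposited. The higher share was 0.247% without a filter and 0.44% to 0.675% when single libraries were left out. Signs reversed for Fmn2 with median-ratio scaling (0.12) and quantile normalization (0.31), for Myo5b with these (0.21 and 0.37), with the length trend removed (0.082) and without IVO replicate 3 (0.024, with -0.22 as the lowest value over single libraries), and for Rab11a with quantile normalization (0.12). Same-numbered libraries did not deviate together across genes (r -0.11 to -0.02). Whether libraries of the same number were prepared together is not given in the sources used here. With the replicate number as a block 1 actin gene and 6 of the other genes were lower, 0 higher, beside 15.4% and 0.489% of all tested genes. Fits without 1 library assume that the remaining 2 vary like the other group. Ratios of 3 against 3 libraries cannot reach p under 0.1, and Spire2 lies near the limit of 3 fragments. Where values moved, the cause was not tested.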
